A study of Mus musculus with 8 samples.

Results

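The genes described here are 10 RNA-binding proteins that set alternative splicing in muscle, namely Rbm24, Rbfox1, Rbfox2, Mbnl1, Mbnl2, Mbnl3, Celf1, Celf2, Ptbp1 and Ptbp2. They were chosen by symbol from a table of 23420 genes, all 10 were present, and all 10 passed the filter on low counts that left 13167 genes for testing. Their mRNAs were followed in C2C12 cells, a mouse myoblast line that exits the cell cycle and fuses into myotubes when serum is withdrawn. The 8 libraries form 4 groups of 2: AUF1-overexpressing cells and WT cells, each as RNA of heavy polysomes (mRNA carrying many ribosomes) and as total RNA. All cells had been grown in 10% serum and held for 48 h in 2% horse serum, so every group is a differentiating culture. AUF1, encoded by Hnrnpd, binds AU-rich sequences in mRNAs. The vector and promoter behind the overexpression, its origin as a pool or a clone, and any control vector in the WT cells are not stated in the labels. Nor do they say if both libraries of a group had a culture of their own, and a p-value here reflects library-to-library spread that could be technical.

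Many exons are switched during muscle maturation by proteins that bind short motifs beside exons and raise or lower their inclusion. Proteins of the MBNL, RBFOX and RBM24 families favour adult or muscle exons at many of their sites, whereas CELF1 favours fetal forms and PTBP1 represses many tissue-specific exons. Loss of MBNL activity on expanded CUG repeats, with a gain of CELF1, underlies the missplicing of myotonic dystrophy. The counts used here are per gene, so they measure how much mRNA each regulator had and say nothing of which exons were used.

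Rbm24 and Rbfox1 stood several-fold higher in every AUF1 library than in every WT library. Their promoter windows (RefSeq, build GRCm38.p6, from 250 bases before to 50 bases after an annotated start) are shown because these are the 2 mRNAs the results turn on. Capitals mark CANNTG, the E-box motif that myogenic factors such as MyoD and myogenin can bind. The pattern matches both strands at the same place, although a form such as CAGGTG reads CACCTG on the other strand. Rbm24 (chr13:46418050-46418349, plus strand) has 1 listed start and Rbfox1 has 2 (chr16:5884543-5884842 and chr16:7069585-7069884, plus strand).
Rbm24: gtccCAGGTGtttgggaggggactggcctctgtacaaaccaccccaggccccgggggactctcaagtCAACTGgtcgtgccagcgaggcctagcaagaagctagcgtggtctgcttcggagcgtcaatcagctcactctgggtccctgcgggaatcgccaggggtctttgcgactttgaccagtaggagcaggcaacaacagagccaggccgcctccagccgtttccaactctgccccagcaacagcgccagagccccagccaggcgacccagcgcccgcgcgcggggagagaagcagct
Rbfox1 upstream start: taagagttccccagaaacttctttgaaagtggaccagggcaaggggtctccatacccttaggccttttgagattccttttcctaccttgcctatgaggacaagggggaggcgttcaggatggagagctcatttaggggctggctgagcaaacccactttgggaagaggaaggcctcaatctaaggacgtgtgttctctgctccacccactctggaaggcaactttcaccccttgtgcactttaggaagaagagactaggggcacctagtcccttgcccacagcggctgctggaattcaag
Rbfox1 downstream start: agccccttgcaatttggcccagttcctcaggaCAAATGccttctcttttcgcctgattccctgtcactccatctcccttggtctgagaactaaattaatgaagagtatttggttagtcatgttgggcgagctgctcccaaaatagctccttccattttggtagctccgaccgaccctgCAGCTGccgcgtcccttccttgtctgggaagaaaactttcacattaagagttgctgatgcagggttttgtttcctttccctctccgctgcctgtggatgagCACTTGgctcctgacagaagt
The Rbm24 window holds 2 matches, among them CAGGTG, and the downstream Rbfox1 window holds 3, among them CAGCTG. The Ptbp1 window also holds 3, among them CAGCTG, although Ptbp1 levels overlapped between the genotypes in both fractions. Mbnl1 and Celf2 have windows with 2 matches as well. Of all 32851 windows 72.3% held CANNTG, 20.2% held CAGGTG or CACCTG and 16.3% held the form CAGCTG, so a match is common. Of the 10 regulators 9 had a window, and 9 of their 15 windows held CANNTG. Gene counts do not show which Rbfox1 start was used.

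Hnrnpd itself was higher in AUF1 libraries, at 549 and 427 CPM (the customary scaling of a gene's counts to library size, here adjusted by the trimmed mean of M-values) on AUF1 polysomes against 106 and 131 CPM on WT polysomes. Its total RNA level was 448 and 397 CPM with AUF1 against 64.2 and 99.6 CPM in WT. The deposited counts do not separate the introduced AUF1 from the cell's own. Libraries held 25281224 to 34917660 counts in genes. Over all genes the replicate number (1 or 2) separated the libraries on the first principal component, which held 44.6% of the variance, and the genotype on the second with 37.1%. Fold changes are therefore also given between libraries that carry the same number.

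The first question is how the regulators' mRNAs differed in total RNA between AUF1 and WT cells. Rbm24, a muscle and heart protein that promotes inclusion of muscle exons, had a total RNA level of 234 and 363 CPM with AUF1 (replicates 1 and 2) and of 34.9 and 49.2 CPM in WT. Each AUF1 library was several times above each WT library. The means were 299 ± 91.4 CPM with AUF1 and 42.1 ± 10.2 CPM in WT (SD, n = 2 each), a log2 fold change of 2.83 ± 0.35 (SE, derived from the test's F statistic), which is 7.1-fold. It rose past the threshold in edgeR's quasi-likelihood test (Benjamini-Hochberg adjusted p = 0.0399 over all genes), and within replicates 1 and 2 the changes were 2.74 and 2.88. In bulk RNA a different share of cells of 1 kind and a different amount of RNA per cell cannot be told apart, for Rbm24 as for the other regulators. Rbm24 lies on mm10 chromosome 13, from 46418434 to 46431095 on the plus strand (GENCODE M21).

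Rbfox1, an RNA-binding protein of neurons, heart and skeletal muscle that recognises GCAUG, was a rare mRNA in WT cells. It had 133 and 236 read counts in the AUF1 total libraries, which is 4.66 and 8.74 CPM, against 15 and 29 read counts in the WT total libraries, which is 0.608 and 1.02 CPM. The groups did not overlap, and WT cells had few reads of it. The log2 fold change of 3.03 ± 0.64 was of the size of that of Rbm24, but edgeR gave it an adjusted p of 0.106, above the threshold of 0.05. It passed when the replicate number was added to the model as a replicate block (adjusted p = 0.000846) and in DESeq2 without it (adjusted p = 0.000837), and the changes within replicates 1 and 2 were 2.81 and 3.02. The value was 2.51 without AUF1 total replicate 2 and 3.45 without WT total replicate 2. Rbfox1 spans chromosome 16 from 5885355 to 7411526 on the plus strand.

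Rbfox2, the broadly expressed relative that binds the same motif, was at 582 and 633 CPM with AUF1 and at 462 and 555 CPM in WT total RNA. Its log2 fold change was 0.26 ± 0.22 (adjusted p = 0.715), so the family's rare member and its abundant member gave unlike values. In read counts Rbfox1 was 0.00800 and 0.0138 of Rbfox2 in AUF1 total libraries and 0.00132 and 0.00183 of it in WT total libraries. On polysomes that ratio was 0.00996 and 0.0173 with AUF1 and 0.000616 and 0.00159 in WT. Rbfox2 lies on chromosome 15, from 77078990 to 77307004 on the minus strand.

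**Figure D1:**
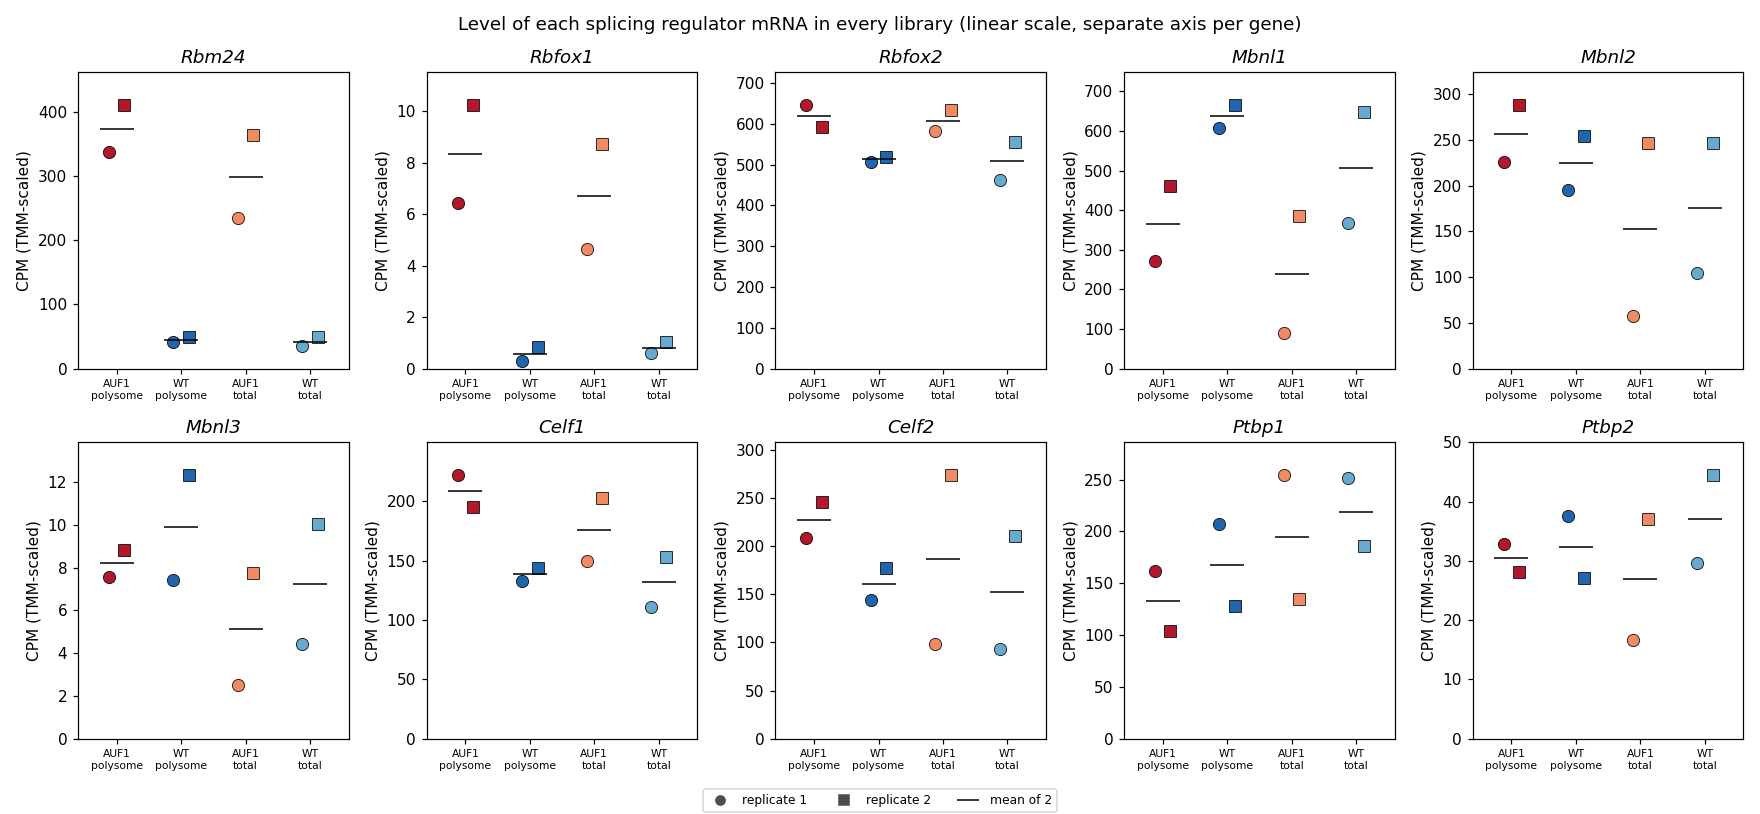
CPM of each regulator (vertical axis, linear, from 0, one axis per gene) in the AUF1 polysome, WT polysome, AUF1 total and WT total libraries, with circles for replicate 1, squares for replicate 2 and a bar for the mean of 2. Rbm24 and Rbfox1 separate by genotype in both fractions, while Mbnl1, Mbnl2, Mbnl3 and Celf2 spread widely between the replicates of total RNA.

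In total RNA 1 of the 10 regulators was called higher (Rbm24) and 0 lower by edgeR, where 1.02% of all tested genes were called, 0.82% higher and 0.197% lower. With the replicate block it was 2 of 10, where 13.1% were called. At an unadjusted p under 0.05 the count was 2 of 10, against 13.7% of all genes. Rbm24, Rbfox1 and Rbfox2 were higher in both AUF1 libraries than in both WT libraries, 3 of 10 where 22.5% of all genes were, and 0 of 10 were lower without overlap where 17.8% were. The median log2 fold change of the 10 was 0.04 and that of all genes 0.00. The Rbm24 call in total RNA was lost in the same test with DESeq2's size factors (adjusted p = 0.0501) and when any 1 of the 8 libraries was left out (adjusted p from 0.0887 to 0.388), settings under which 0 of all genes were called, with log2 fold changes of 2.48 (without AUF1 total replicate 2) to 3.10 (without WT total replicate 2).

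The second question is how the regulators differed on heavy polysomes, where mRNAs are under active translation. Rbm24 was at 337 and 411 CPM on AUF1 polysomes and at 40.8 and 49.1 CPM on WT polysomes, with no overlap. Its log2 fold change was 3.06 ± 0.35 (edgeR, adjusted p = 0.0461), and 3.04 and 3.06 within replicates 1 and 2. Rbfox1 had 207 and 278 read counts on AUF1 polysomes and 11 and 26 on WT polysomes, which is 6.43 and 10.2 CPM against 0.312 and 0.825 CPM. Its log2 fold change of 3.87 ± 0.67 was the largest of the 10 and again missed the threshold (adjusted p = 0.0735, 0.000449 with the replicate block). The value was 3.33 without WT polysome replicate 1 and 4.72 without WT polysome replicate 2.

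Celf1, which binds GU-rich sequences and in muscle favours fetal exon choices, was at 222 and 195 CPM on AUF1 polysomes and at 133 and 144 CPM on WT polysomes. Celf2, its close relative, was at 209 and 246 CPM on AUF1 polysomes and at 144 and 177 CPM on WT polysomes. Neither pair of groups overlapped, yet the log2 fold changes of 0.59 ± 0.28 for Celf1 and 0.50 ± 0.57 for Celf2 did not pass (adjusted p = 0.424 and 0.83). In total RNA Celf1 stood at 150 and 202 CPM with AUF1 and at 111 and 153 CPM in WT (log2 fold change 0.41 ± 0.28, adjusted p = 0.609). Celf2 stood at 98.9 and 274 CPM in total RNA with AUF1 and at 93.0 and 211 CPM in WT (0.30 ± 0.57, adjusted p = 0.908), so it differed more between replicate numbers than between genotypes. Celf1 (90940382 to 91019497, plus strand) and Celf2 (6539694 to 7509563, minus strand) lie on chromosome 2. Exons of Celf2 overlap 1961 bases of Gm26565 on the other strand, and the strand setting of the counting is not given, so reads of the 2 genes cannot be told apart there.

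On polysomes 1 of 10 regulators was called higher (Rbm24) and 0 lower, where 0.349% of all genes were called, 0.281% higher and 0.0684% lower. With the replicate block it was 2 of 10, where 13% were called. At an unadjusted p under 0.05 the count was 2 of 10, against 14.1% of all genes. Higher without overlap were 5 of the 10 (Rbm24, Rbfox1, Rbfox2, Celf1 and Celf2), where 23.6% of all genes were, and 1 was lower (Mbnl1), where 21.3% were. The median log2 fold change of the 10 was 0.23, against 0.00 for all genes. The Rbm24 call on polysomes was lost with DESeq2's size factors (adjusted p = 0.0588) and without any 1 library (adjusted p from 0.0866 to 0.388), with log2 fold changes of 2.86 to 3.20.

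**Figure D2:**
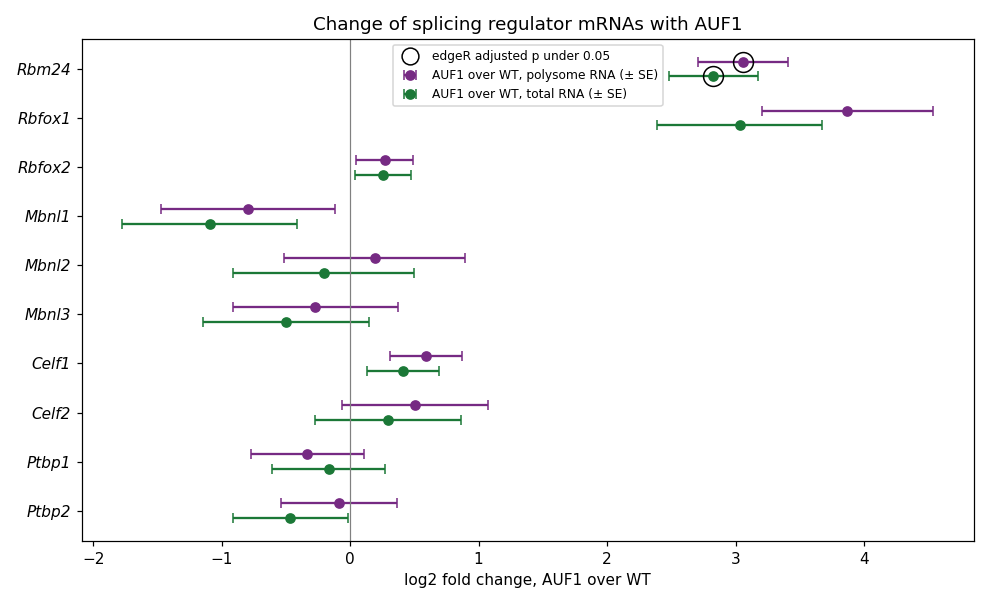
Log2 fold change of AUF1 over WT (horizontal axis) with its SE for each regulator, on polysomes (purple, upper of each pair) and in total RNA (green, lower of each pair), and a black ring where edgeR's adjusted p was under 0.05. Rbm24 is ringed in both fractions, at 3.06 and 2.83, and Rbfox1 is as far to the right, at 3.87 and 3.03, with wider errors.

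The MBNL proteins bind RNA through zinc fingers and, as a family, drive the fetal to adult exon switch. Mbnl1, the main adult muscle form, was at 272 and 461 CPM on AUF1 polysomes and at 607 and 666 CPM on WT polysomes. In total RNA it was at 90.7 and 386 CPM with AUF1 and at 367 and 649 CPM in WT. The AUF1 level was the lower one within each replicate number and fraction, although the total RNA groups overlapped. The log2 fold change was -0.80 ± 0.68 on polysomes (edgeR, adjusted p = 0.725) and -1.09 ± 0.68 in total RNA (adjusted p = 0.572). Within replicates 1 and 2 it was -1.16 and -0.53 on polysomes and -2.01 and -0.75 in total RNA. With the replicate block the total RNA value had an adjusted p of 0.0629 in edgeR, above the threshold, and passed in DESeq2 (-1.32, adjusted p = 0.0136). In total RNA the value was -0.45 without AUF1 total replicate 1 and -2.49 without AUF1 total replicate 2, and on polysomes -0.47 without AUF1 polysome replicate 1 and -1.28 without AUF1 polysome replicate 2. Mbnl1 lies on chromosome 3, from 60472830 to 60629750 on the plus strand.

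Mbnl2, the relative that is prominent in brain and also present in muscle, was at 226 and 289 CPM on AUF1 polysomes and at 195 and 255 CPM on WT polysomes. In total RNA it was at 57.6 and 247 CPM with AUF1 and at 105 and 247 CPM in WT. The groups overlapped in both fractions (log2 fold changes 0.19 ± 0.70 and -0.21 ± 0.70, adjusted p = 0.983 and 0.957). Mbnl3, a form linked to immature and proliferating muscle cells, was rare, at 7.55 and 8.85 CPM on AUF1 polysomes and 7.44 and 12.3 CPM on WT polysomes. In total RNA Mbnl3 was at 2.49 and 7.74 CPM with AUF1 and at 4.41 and 10.0 CPM in WT, and its values overlapped in both fractions (-0.27 ± 0.64 and -0.50 ± 0.65, adjusted p = 0.965 and 0.843). Mbnl2 lies on chromosome 14 (120275669 to 120431697, plus strand), where 86 bases of its exons overlap Gm26679 on the other strand, and Mbnl3 on chromosome X (51117269 to 51206532, minus strand).

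The balance of Mbnl2 and Mbnl1 separated the genotypes in all 8 libraries. Counts of Mbnl2 were 0.831 and 0.626 of those of Mbnl1 on AUF1 polysomes and 0.322 and 0.383 on WT polysomes. In total RNA the ratio was 0.635 and 0.641 with AUF1 and 0.287 and 0.380 in WT. Scaled to exon length, Mbnl2 stood at 0.977 to 1.30 times Mbnl1 in the AUF1 libraries and at 0.447 to 0.597 times in the WT libraries. The ratio is taken within a library, so scaling between libraries does not enter it. It is given as a description and was not tested. The Mbnl3 to Mbnl1 ratio was 0.0278 and 0.0192 on AUF1 polysomes and 0.0123 and 0.0185 on WT polysomes, and in total RNA 0.0274 and 0.0201 with AUF1 and 0.0120 and 0.0155 in WT. These groups did not overlap either, with a small gap on polysomes. Both ratios are over Mbnl1, whose own change did not pass in edgeR's main fit. Single genes often separated too with 2 libraries per group. In total RNA 22.5% of all genes were higher and 17.8% lower without overlap, and on polysomes 23.6% and 21.3%.

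**Figure D3:**
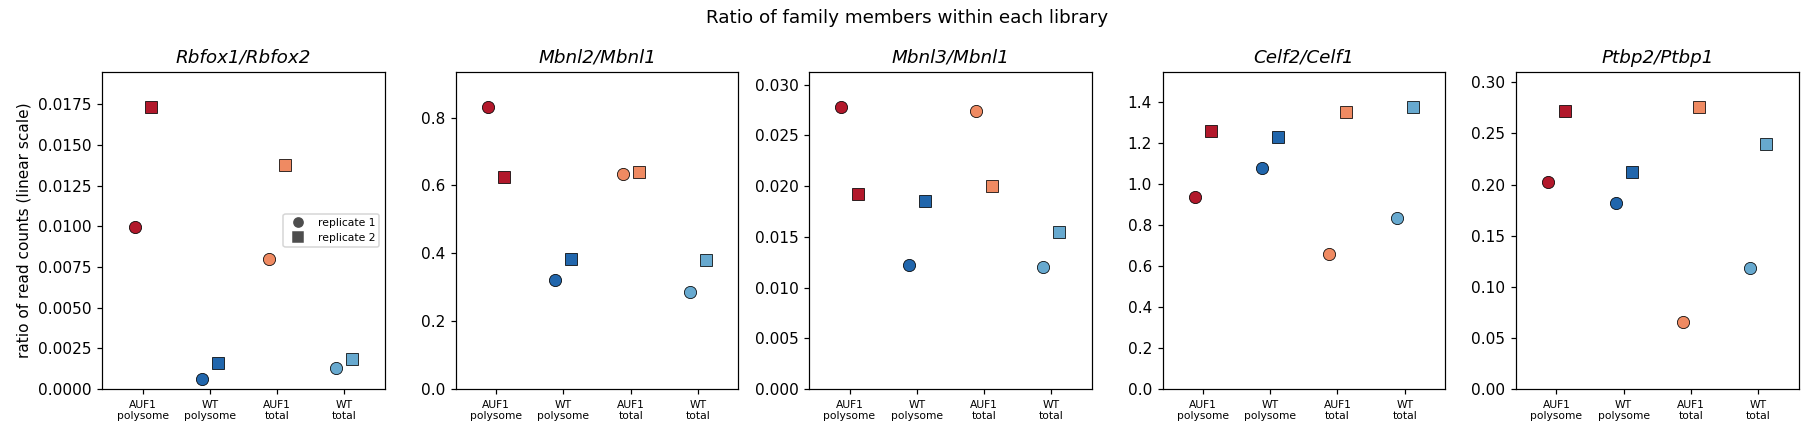
Ratio of read counts of 2 members of a family within each library (vertical axis, linear, from 0), for the AUF1 polysome, WT polysome, AUF1 total and WT total groups, with circles for replicate 1 and squares for replicate 2. The Rbfox1 to Rbfox2 and Mbnl2 to Mbnl1 ratios are higher in every AUF1 library than in every WT library, whereas Celf2 to Celf1 and Ptbp2 to Ptbp1 overlap.

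PTBP1 binds polypyrimidine tracts and represses many muscle and neural exons, and PTBP2 is its relative that takes over in developing neurons. Ptbp1 was at 162 and 104 CPM on AUF1 polysomes and at 207 and 128 CPM on WT polysomes, and at 255 and 134 CPM in AUF1 total RNA and 252 and 186 CPM in WT total RNA. The groups overlapped in both fractions, with log2 fold changes of -0.33 ± 0.44 on polysomes and -0.17 ± 0.44 in total RNA (edgeR, adjusted p = 0.879 and 0.94). It lies on chromosome 10 (79854427 to 79864771, plus strand), where 3 genes on the other strand share 983 bases of its exons. Ptbp2 was at 32.8 and 28.2 CPM on AUF1 polysomes and 37.6 and 27.2 CPM on WT polysomes, and at 16.7 and 37.1 CPM in AUF1 total RNA and 29.7 and 44.5 CPM in WT total RNA (-0.09 ± 0.45 and -0.47 ± 0.45, adjusted p = 0.991 and 0.759). The Ptbp2 to Ptbp1 ratio was 0.202 and 0.272 on AUF1 polysomes and 0.182 and 0.213 on WT polysomes, and 0.0655 and 0.276 in AUF1 total RNA and 0.118 and 0.240 in WT total RNA. Ptbp2 lies on chromosome 3, from 119718742 to 119784466 on the minus strand. In total RNA that ratio differed more between the numbers than between the genotypes, as did the Celf2 to Celf1 ratio, which ran from 0.660 to 1.36 in AUF1 total RNA and from 0.837 to 1.38 in WT total RNA.

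The spread between replicate numbers was itself large for these genes. In AUF1 total RNA, replicate 1 minus replicate 2 was -2.09 log2 units for Mbnl1, -2.10 for Mbnl2, -1.61 for Mbnl3, -1.47 for Celf2 and -1.15 for Ptbp2, and 1.61% to 12.5% of all genes lay lower than each of these. In WT total RNA the same genes were at -0.82, -1.23, -1.17, -1.18 and -0.58. On polysomes the differences were smaller for most, from -0.76 to 0.22 with AUF1 and from -0.72 to 0.47 in WT for those 5 genes. Ptbp1 ran the other way in all 4 groups, from 0.44 to 0.92. Rbfox2 stayed between -0.27 and 0.13.

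Gene length moved with that difference. Genes with 8 kb or more of exon had a median replicate 1 minus replicate 2 of -0.43 in AUF1 total RNA and -0.32 in WT total RNA, while genes under 2 kb had 0.30 and 0.14. On polysomes the long genes were at 0.09 (AUF1) and 0.14 (WT) and the short genes at -0.28 and -0.25. Of the 10 regulators 7 have 8 kb or more, and Rbm24 at 3.49 kb, Rbfox1 at 4.40 kb and Ptbp1 at 4.74 kb are the others. Fibroblast markers moved with the number too. Their summed level was 819 and 417 CPM on AUF1 polysomes against 3324 and 716 CPM on WT polysomes, and 1607 and 412 CPM in AUF1 total RNA against 4744 and 692 CPM in WT total RNA (replicates 1 and 2), with Lum at 0 in 3 of the 4 groups. The part of either in the regulators' values was not tested.

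**Figure D4:**
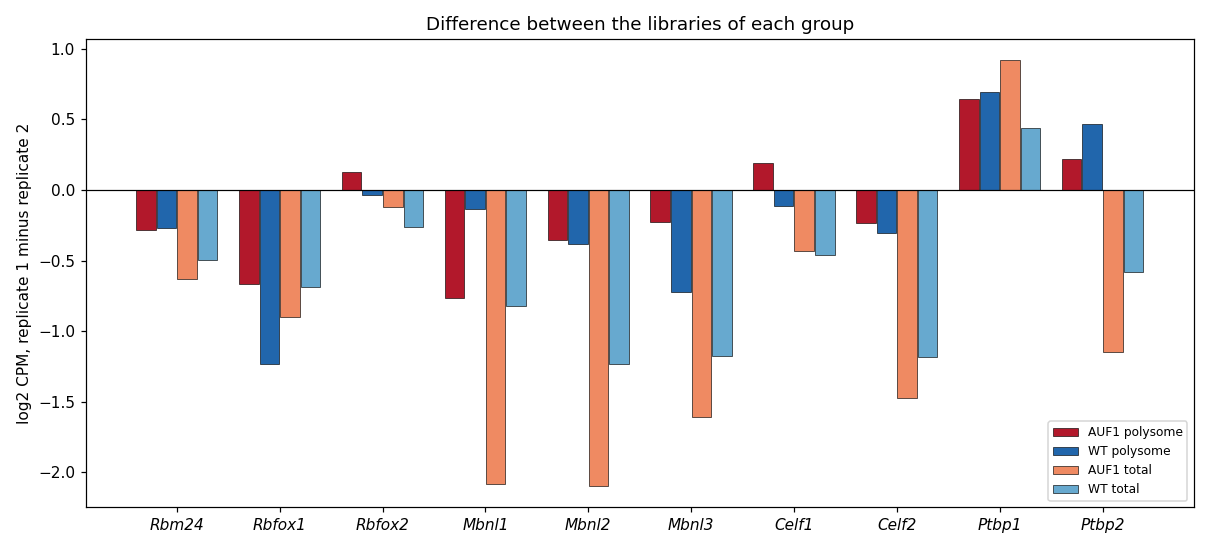
Log2 CPM of replicate 1 minus replicate 2 (vertical axis) for each regulator in the AUF1 polysome, WT polysome, AUF1 total and WT total groups. The longest bars below 0 belong to Mbnl1 and Mbnl2 in AUF1 total RNA, at -2.09 and -2.10, and the Ptbp1 bars all lie above 0.

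Per kilobase of exon the order of the regulators differed between AUF1 and WT cells, most of all for Rbm24. Length here is that of all annotated exons of a gene joined, 3.49 kb for Rbm24 and 25.9 kb for Celf2, and the order depends on it. In CPM alone Rbfox2 was above Rbm24 on AUF1 polysomes, at 619 ± 38.8 against 374 ± 52.4 (SD, n = 2 each). On AUF1 polysomes Rbm24 was first at 107 CPM per kb (libraries at 96.5 and 118), then Rbfox2 at 76.0 ± 4.77, and their libraries did not overlap. On WT polysomes Rbfox2 was first at 63.0 ± 1.04, followed by Ptbp1 at 35.3 ± 11.8 and Mbnl1 at 34.0 ± 2.22, which overlapped each other, and Rbm24 was sixth at 12.9 ± 1.68 (SD, n = 2 each). In AUF1 total RNA Rbm24 at 85.6 ± 26.2 and Rbfox2 at 74.6 ± 4.43 overlapped, and in WT total RNA Rbfox2 led at 62.5 ± 8.10, with Rbm24 (libraries at 9.99 and 14.1) overlapping Celf1 and Mbnl2. Ptbp2, Mbnl3 and Rbfox1 held the last 3 places in all 4 groups. Rbfox1 was last in WT cells, at 0.129 ± 0.0824 CPM per kb on polysomes and 0.185 ± 0.0660 in total RNA, and above Mbnl3 in AUF1 cells, at 1.90 ± 0.613 and 1.52 ± 0.655. In total RNA with AUF1, Mbnl1 at 12.7 ± 11.1 and Mbnl2 at 12.7 ± 11.2 could not be ordered.

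Comparing polysome with total RNA sets the scaled level of each mRNA in polysome libraries against that in total libraries. Such levels are relative to the other mRNAs, so how much of an mRNA carried many ribosomes is not measured. In AUF1 cells 0 of 10 regulators were called by edgeR (0 at an unadjusted p under 0.05, 0 by DESeq2), where 0% of all genes were called and 3.33% had an unadjusted p under 0.05. In WT cells the count was also 0 of 10 (0 unadjusted, 0 by DESeq2), with 0% of all genes called and 2.76% under the unadjusted threshold. With the replicate block the counts stayed at 0 of 10, where 0.0152% of all genes were called in each genotype. All 10 regulators overlapped between fractions, while 8.86% of all genes were higher and 13.4% lower on polysomes without overlap in AUF1 cells, and 13% and 14.9% in WT cells. The fitted differences in AUF1 cells ran from -0.55 ± 0.44 (Ptbp1) to 0.76 ± 0.71 (Mbnl2), and in WT cells from -0.52 ± 0.63 (Rbfox1) to 0.45 ± 0.65 (Mbnl3). Rbm24 was at 0.32 ± 0.32 in AUF1 cells and 0.10 ± 0.32 in WT cells, and Ptbp1 at -0.55 ± 0.44 and -0.38 ± 0.44, lower on polysomes within each replicate number of both genotypes. The interaction, the difference between the AUF1 effects in the 2 fractions, was called for 0 of 10 regulators (0 unadjusted, 0 by DESeq2) and for 0% of all genes, of which 0.122% had an unadjusted p under 0.05. Interaction values ran from -0.16 ± 0.62 for Ptbp1 to 0.84 ± 0.86 for Rbfox1. A polysome comparison and a genotype comparison share libraries, so their values are not independent.

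Sequence in the untranslated tail is a feature the choice of genes did not use. Taking for each gene the longest annotated 3' untranslated region in GENCODE M21, all 10 regulators were above the tested genes' median of 1177 bases, with a median of 3072 bases. The AU-rich pentamer ATTTA was in all 10, and in 70% of the 11928 tested genes that had such a region. Rbm24 had 10 copies in 1778 bases, or 5.62 per kb, a density reached by 4.51% of tested genes. Ptbp2 followed with 3.78 per kb, reached by 11.8% of tested genes, and Mbnl2 with 3.28, reached by 16.3%. Mbnl1 had 2.95 and Rbfox1 had 2.92, reached by 20.0% and 20.3%. Rbfox2 had the lowest density at 0.967. The tested genes had a median of 1.30 per kb and the 10 regulators of 2.40. GCATG, the motif that RBFOX proteins bind in RNA as GCAUG, was in 7 of the 10 and in 60.2% of tested genes, and not in Rbm24, Rbfox1 or Ptbp1. Both were searched on the transcript strand, and a match is a description of the letters, not of a bound site.

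The gene lists from here on were chosen with earlier results of these data known, so their counts describe and do not test. Among 26 other splicing regulators, 18 were tested. In total RNA 1 was called higher and 0 lower, where 1.02% of all genes were called. The median log2 fold change was 0.11 against 0.00 for all genes. The called gene was Rbm38, the closest relative of Rbm24 and also a driver of myoblast cell cycle exit. Rbm38 was at 152 ± 32.1 CPM with AUF1 and 33.2 ± 1.60 CPM in WT (SD, n = 2 each), a log2 fold change of 2.19 ± 0.28 (edgeR, adjusted p = 0.041). On polysomes 0 of 18 were called by edgeR, where 0.349% of all genes were called, and the median was 0.00. An unadjusted p under 0.05 was found there for 2 of the 18, against 14.1% of all genes. DESeq2 called 2 of the 18 on polysomes, and 856 of all 13167 genes. Rbm38 stood on polysomes at 172 ± 16.2 CPM with AUF1 and 48.9 ± 8.03 CPM in WT (1.82 ± 0.28, edgeR, adjusted p = 0.059). Khdrbs3, a STAR-family splicing factor, stood at 2.06 ± 0.44 in total RNA and 1.71 ± 0.44 on polysomes (adjusted p = 0.108 and 0.154). Next by p was Rbm4 in total RNA at 0.74 ± 0.34 (adjusted p = 0.416), and on polysomes Zfp36l2, which binds AU-rich mRNAs, at -0.95 ± 0.56 (adjusted p = 0.547). The Rbm38 call was lost without any 1 library. With the replicate block 2 of the 18 were called higher and 1 lower in each fraction. Over all genes the block called 13.1% in total RNA and 13% on polysomes. Between polysome and total RNA 0 of 18 were called in either genotype by edgeR (0 unadjusted in AUF1 cells and 1 in WT cells, Rbpms, and 0 by DESeq2 in both). Over all genes 3.33% in AUF1 cells and 2.76% in WT cells had an unadjusted p under 0.05.

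Of 40 listed genes with known muscle alternative exons, 39 were tested. In total RNA 5 were called higher and 0 lower, where 1.02% of all genes were called, with a median log2 fold change of 1.05 against 0.00 for all genes. Among the called genes were Tpm2, a tropomyosin, at 2.51 ± 0.29, Ryr1, the calcium release channel, at 2.30 ± 0.29, and the Z-disc proteins Ldb3 at 2.14 ± 0.30 and Pdlim3 at 2.92 ± 0.43 (edgeR, adjusted p from 0.0399 to 0.0441). On polysomes, where 0.349% of all genes were called, 1 was called higher, Tpm2 at 2.40 ± 0.29 (edgeR, adjusted p = 0.0461), and 0 lower, with a median of 1.10. These counts were 0 without any 1 library, and with the replicate block 19 were called higher in each fraction and 1 lower on polysomes. Over all genes the replicate block called 13.1% in total RNA and 13% on polysomes. Tpm2 averaged 5830 ± 1560 CPM on AUF1 polysomes and 1106 ± 248 CPM on WT polysomes (SD, n = 2 each). Whether the exons of the listed genes changed cannot be read from counts per gene. Pkm, whose alternative exons PTBP1 controls, had no called change with AUF1 (0.43 ± 0.36 in both fractions, adjusted p = 0.704 in total RNA and 0.72 on polysomes). For polysome against total RNA it stood at -1.03 ± 0.36 in AUF1 cells and -1.03 ± 0.36 in WT cells, values that did not pass (unadjusted p = 0.0272 and 0.0275).

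Some markers of muscle differentiation were called higher together with Rbm24. Of 12 measured, 7 were called higher in total RNA, where 1.02% of all genes were called, and 2 on polysomes, where 0.349% were, with median log2 fold changes of 2.69 and 2.52. These counts were 0 with DESeq2's size factors or without any 1 library, and 12 of 12 in each fraction with the replicate block, where 13.1% and 13% of all genes were called. Their summed level was 27893 and 35686 CPM on AUF1 polysomes against 5027 and 7295 CPM on WT polysomes, and 36764 and 32736 CPM in AUF1 total RNA against 5193 and 6054 CPM in WT total RNA. None of the 12 was at 0. Tnnt3 is also among the genes with alternative exons and Myog among the myoblast markers, so these lists are not independent. The 10 proliferation genes had 0 calls (0 unadjusted, 0 by DESeq2) in either fraction, with medians of 0.05 and 0.29, and summed to 387 and 187 CPM on AUF1 polysomes, 238 and 248 CPM on WT polysomes, 356 and 236 CPM in AUF1 total RNA and 242 and 321 CPM in WT total RNA. Their part in the rise of Rbm24 was not tested.

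The 5 genes whose log2 CPM followed Rbm24 most closely over the 8 libraries, among 9859 genes for which edgeR's average log2 CPM was 3 or more, were Hspb3, Arpp21, Lrrc39, Tbc1d8 and Pkp4 (Pearson's r from 0.994 to 0.999, given as a description, since the libraries share their genotype split). Hspb3 is a small heat shock protein of muscle and Lrrc39 a protein of the sarcomeric M-band. Hspb3 averaged 17.8 CPM on AUF1 polysomes and 1.11 CPM on WT polysomes, and Arpp21 averaged 200 and 23.9 CPM. In WT total RNA Hspb3, Lrrc39 and Tbc1d8 averaged 1.02, 3.75 and 4.15 CPM, so these genes reached the required level through the AUF1 libraries.

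Neurons share Rbfox1, Ptbp2 and Celf2 with muscle, so their markers were read too. The 8 neuron markers summed to 224 and 188 CPM on AUF1 polysomes and 277 and 200 CPM on WT polysomes, and to 243 and 183 CPM in AUF1 total RNA and 249 and 194 CPM in WT total RNA. Snap25 and Rbfox3 had 0 counts in 3 of the 4 groups. Group means of Stmn2 were 97.8 to 168 CPM, of Tubb3 43.4 to 71.8, of Syn1 18.9 to 32.5 and of Map2 6.21 to 10.4. Of these 4 tested markers 0 were called in either fraction by edgeR (0 unadjusted, 0 by DESeq2). Of 6 myoblast markers 0 were called by edgeR in either fraction (3 unadjusted and 2 by DESeq2 in each, and 2 higher in each with the replicate block), with medians of 1.33 in total RNA and 0.91 on polysomes. Over all genes 13.7% in total RNA and 14.1% on polysomes had an unadjusted p under 0.05. DESeq2 called 885 and 856 of all 13167 genes, and the replicate block called 13.1% and 13%. The same shares stand beside the counts of the marker lists that follow. Of 6 tested fibroblast markers 0 were called (3 unadjusted and 3 by DESeq2 in each fraction), with medians of -1.74 and -1.97. The replicate block called 4 of the 6 lower in total RNA and 5 on polysomes, where it called 13.1% and 13% of all genes. Smooth muscle markers had 1 of 4 called higher in total RNA, where 1.02% of all genes were called, and 0 on polysomes (3 unadjusted, 2 by DESeq2 and 2 with the replicate block in each fraction). Of 2 tested adipocyte markers 0 were called (1 unadjusted, 0 by DESeq2), and of 3 immune markers 0 (0 unadjusted, 0 by DESeq2). The replicate block called 1 adipocyte and 1 immune marker lower in each fraction. The immune markers in the table summed to no more than 1.87 CPM in any library.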

How the data were processed

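The deposited table holds raw counts per gene symbol, one column per library, which were used as the authors deposited them. STAR, Bowtie, SAMtools, Trimmomatic and cutadapt are listed with build mm10, per the submitters' processing notes. The labels name neither the counting program nor its strand setting or annotation. The 5 summary lines were left out (reads outside genes were 6.04% to 7.23% of counts, ambiguous ones 0.254% to 0.389%). Titles number the replicates 1 and 2, but descriptions and column headers give the second library of each group the number 3. The titles' numbers are used here. Libraries titled High were read as heavy polysomes. Genes were filtered with filterByExpr and fitted with TMM scaling in edgeR 4.0.16 (R 4.3.3), with 1 coefficient per group, 4 residual degrees of freedom, two-sided quasi-likelihood tests and Benjamini-Hochberg adjustment over 13167 genes. Genes with adjusted p under 0.05 were called. DESeq2 1.42.0, a replicate block and other settings were alternatives. Differences within a number use log2 CPM with a prior count of 2. Lengths and positions come from GENCODE M21, matched by symbol for 93.8% of tested genes. All 10 members, called list genes (at most 6, otherwise the 3 with the smallest p) and 5 like-patterned genes are named. Of the called list genes, 1 is not reported here. Members and lists were chosen with earlier results of these data known. Counting error is small at these depths, except for Rbfox1 and Mbnl3.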

Additional observations from a re-analysis of the deposited data

Results flagged for a closer look

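The polysome to total RNA difference of Rbfox1 had opposite signs in AUF1 and WT cells, but each sign turned when 1 library was left out. The fitted values ran from -0.072 (without AUF1 total replicate 1) to 0.84 in AUF1 cells and from -1.38 to 0.019 (without WT polysome replicate 1) in WT cells. In AUF1 cells it was higher on polysomes within both replicate numbers, by 0.46 and 0.23 on the log2 scale, and in WT cells lower within both (-0.83 and -0.28). The interaction test of that difference did not pass in edgeR's quasi-likelihood test (0.84 ± 0.86, Benjamini-Hochberg adjusted p = 0.999964), and the WT values rest on 11 to 29 read counts per library. Groups of 2 libraries are too small to single out a library that stands apart.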

How the results depend on the processing

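Rbm24 was the 1 regulator called in each genotype comparison. In total RNA the count was 2 with the replicate block, 2 with DESeq2, 3 with DESeq2 and the block (Mbnl1 added), and 0 with DESeq2's size factors in edgeR, with library size only, and with only the groups compared. On polysomes it was 2, 2, 2, 0, 0 and 0 under the same settings. Leaving out any 1 library gave 0 to 0 in both. The cause was not tested. Over all tested genes the 134 calls in total RNA became 1730 with the replicate block, 885 with DESeq2 and 2364 with both, and the 46 on polysomes became 1716, 856 and 2417, and 94 with no filter on low counts. They were 0 with DESeq2's size factors in edgeR, library size only, only the groups compared, or any 1 library left out. Rbm24 log2 fold changes stayed between 2.48 and 3.10 in total RNA and between 2.86 and 3.20 on polysomes under all alternatives. Labels do not say what a replicate number shares, so the numbers were not taken as pairs, although differences between replicates 1 and 2 correlated across the 4 groups (r from 0.66 to 0.89 over 11731 genes). With the replicate block Rbfox1 also passed, at adjusted p = 0.000846 in total RNA and 0.000449 on polysomes, and no other regulator changed side in edgeR.

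Over all regulators and comparisons, 332 of 400 log2 fold changes without 1 library kept direction and side of the threshold, 52 reversed and 16 lost a call. Of 340 under other settings 327 kept both and 0 reversed. The 30 results that reversed had sizes of at most 0.62, and none was called. Their leave-one-out ranges for AUF1 against WT in total RNA were -1.61 to 0.54 (Mbnl2), -1.54 to 0.21 (Mbnl3), -0.62 to 1.00 (Celf2) and -0.75 to 0.22 (Ptbp1). On polysomes they were -0.048 to 0.40 (Mbnl2), -0.59 to 0.14 (Mbnl3), -0.69 to 0.053 (Ptbp1) and -0.30 to 0.16 (Ptbp2). For polysome against total RNA in AUF1 cells they were -0.080 to 2.01 (Mbnl1), -0.27 to 1.20 (Celf2), -0.072 to 0.84 (Rbfox1), -0.040 to 0.16 (Rbfox2) and -0.28 to 0.87 (Ptbp2). In WT cells they were -0.013 to 0.80 (Mbnl1), -0.11 to 1.10 (Mbnl2), -0.13 to 0.32 (Celf1), -0.38 to 0.79 (Celf2), -1.38 to 0.019 (Rbfox1), -0.10 to 0.15 (Rbfox2), -0.11 to 0.37 (Rbm24) and -0.45 to 0.12 (Ptbp2). For the interaction they were -0.43 to 1.69 (Mbnl1), -0.35 to 1.80 (Mbnl2), -0.48 to 1.27 (Mbnl3), -0.075 to 0.42 (Celf1), -0.50 to 1.12 (Celf2), -0.13 to 0.17 (Rbfox2), -0.085 to 0.58 (Rbm24), -0.55 to 0.36 (Ptbp1) and -0.10 to 1.07 (Ptbp2). Depth limits Rbfox1 most, with 11 to 29 read counts in WT libraries.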
